A study of Mus musculus with 7 samples.

Results

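Malat1, Neat1 and 8 small nucleolar RNA (snoRNA) host genes, Gas5, Snhg1, Snhg3, Snhg5, Snhg6, Snhg8, Snhg12 and Snhg15, are described here in 4T1 tumor cells. These 10 genes were taken by gene name from an expression table of 57126 genes, 11898 of which are annotated as long noncoding RNA (lncRNA). The cells, a mouse triple-negative mammary carcinoma line carrying mCherry, were sorted by flow cytometry for that fluorescent protein from mammary fat pad tumors of BALB/c mice. In 4 mice the fat pad had received Botox, 0.3 units in 100 µL phosphate-buffered saline (PBS), and in 3 mice 100 µL PBS alone, in each case 7 days before the cells. Each library came from 1 mouse, so the spread between libraries is a spread between mice. Trizol extracts were freed of ribosomal RNA, and stranded libraries were read as 150-base paired ends. The sample titles give the groups, while the treatment label of every library says that it was untreated. The sort kept mCherry cells, and RNA from host cells was still measurable in every library.

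Malat1 is a long, abundant nuclear RNA that gathers in nuclear speckles, the bodies in which splicing factors are stored. Neat1 is the RNA scaffold of paraspeckles, nuclear bodies that hold RNA-binding proteins such as Sfpq and Nono. snoRNA host genes carry snoRNAs in their introns. The snoRNAs are cut from the introns and guide the chemical modification or cleavage of ribosomal RNA, while the spliced host RNA is exported and often degraded during translation, so its level can change with growth and with the rate of translation.

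Several host RNAs begin with a pyrimidine tract of the kind that marks messenger RNAs of the translation machinery, and their start regions are shown for that reason. RefSeq (GRCm38.p6) listed a start for 8 of the 10 genes, Neat1 and Snhg6 not among them. Each line gives the sense strand from 10 bases before to 30 bases after the start. Capitals mark a C followed by at least 4 further bases that are each C or T and begin within 10 bases of the start.
Gas5 (second listed start), chr1:161035156-161035195, plus strand: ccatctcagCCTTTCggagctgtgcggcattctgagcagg
Snhg12, chr4:132308668-132308707, plus strand: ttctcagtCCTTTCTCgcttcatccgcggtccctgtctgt
Snhg8, chr3:123508307-123508346, minus strand: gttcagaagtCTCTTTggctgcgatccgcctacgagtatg
Snhg5, chr9:88522868-88522907, minus strand: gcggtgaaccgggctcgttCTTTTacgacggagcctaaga
Snhg3, chr4:132353657-132353696, minus strand: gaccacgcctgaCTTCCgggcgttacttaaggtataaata
Snhg1, chr19:8723477-8723516, plus strand: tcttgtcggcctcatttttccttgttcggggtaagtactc
Malat1, chr19:5802643-5802682, minus strand: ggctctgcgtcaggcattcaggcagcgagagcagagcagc

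Of the 7 host genes with a listed start, 5 had such a run at any of their starts. The first listed start of Gas5, not shown, had none. Counted per start and not per gene, 30.7% of all 32851 listed starts had one. The run lay at the start itself in Snhg8, across it in Gas5 and Snhg12, a few bases inside the transcript in Snhg3, and at position 10 of the transcript, the edge of the window, in Snhg5. Snhg1, Snhg15 and Malat1 had none in this window. Only the sense strand was searched, and a match describes letters, not a measured start.

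The libraries differed in depth and in the number of genes found. Reads estimated from the step size of the values totalled 8.57 to 10.5 M in Botox libraries and 8.76 to 13.6 M in PBS libraries. Genes above the listed floor numbered 15625 to 24211 in Botox libraries and 24368 to 25147 in PBS libraries, with the fewest in Botox 4. 7SL RNA took 53.0% to 70.4% of TPM, transcript abundance per length scaled to a fixed total, in Botox libraries and 47.9% to 52.0% in PBS libraries, again with Botox 4 at the extreme. On this scale the median log2 fold change of all 11260 tested genes was -0.46. Values are therefore also given after division by median-of-ratios size factors, called the size-factor scale, on which that median was -0.037. The summed TPM of 6 epithelial and mesenchymal markers of 4T1 cells (Krt8, Krt18, Krt7, Epcam, Cdh1 and Vim) ranged over 211 to 745 in Botox libraries and 714 to 788 in PBS libraries. The 9 macrophage markers, all above the floor in every library, summed to 178 to 915 TPM in Botox libraries and 693 to 981 TPM in PBS libraries, and their part in the results below was not tested. In bulk RNA, fewer cells of a type and less RNA per cell cannot be told apart.

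No difference between Botox and PBS passed the test for any of these genes. Of the 10 genes, 9 reached 1 TPM in at least 3 libraries and were tested, and 0 of the 9 were called in limma at a Benjamini-Hochberg adjusted p of 0.05, with 0 at an unadjusted p under 0.05. Across all tested genes the same test called 0% higher and 0% lower, and without adjustment 15 genes were higher and 830 lower at that level. Without Botox 1 it called 3 genes higher and 73 lower, none of them among the 9. On the size-factor scale it called 0.00888% higher and 0% lower, and again 0 of the 9. Limma's adjusted p of the 9 genes ranged over 0.42 to 0.78 on the TPM scale and 0.92 to 1.00 on the size-factor scale. Their median log2 fold change was -0.36 on the TPM scale, against -0.46 over all tested genes, and 0.15 on the size-factor scale, against -0.037. On the TPM scale the groups overlapped for every one of the 10 genes, while 0.151% of all tested genes were higher and 22.4% lower in Botox without overlap.

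Malat1 (ENSMUSG00000092341, chr19:5845717-5852706, minus strand, mm39) was the most abundant of the 10 genes. It had 4416, 3352, 2741 and 1827 TPM in Botox libraries 1 to 4, against 4577, 4164 and 4279 TPM in PBS libraries 1 to 3. The PBS libraries lay close together, and the Botox libraries spread from within the PBS range down to Botox 4. Means were 3084 ± 1087 TPM in Botox and 4340 ± 213 TPM in PBS (SD, n = 4 and 3). The log2 fold change was -0.56 ± 0.36 (SE), with a limma adjusted p of 0.42.

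On the size-factor scale Malat1 had 4119, 3764, 2321 and 4141 in Botox libraries 1 to 4, against 3233, 3417 and 3336 in PBS libraries 1 to 3. On this scale 3 Botox libraries were above all PBS libraries and Botox 3 was below them, so the groups overlapped. The log2 fold change was 0.070 ± 0.23 (SE), with a limma adjusted p of 0.98, so the sign differed between the scales. Malat1 supplied 1.71% ± 0.375 of the estimated reads in Botox and 1.81% ± 0.0215 in PBS (SD, n = 4 and 3). It ranked first among lncRNA genes by TPM in every library except Botox 3, where it ranked 3.

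Neat1 (ENSMUSG00000092274, chr19:5874736-5895898, minus strand, mm39) lies near Malat1 on the same strand. It had 208, 292, 160 and 183 TPM in Botox libraries 1 to 4, against 129, 167 and 265 TPM in PBS libraries 1 to 3. The highest library was Botox 2 and the lowest PBS 1, and the groups overlapped. Means were 211 ± 57.5 TPM in Botox and 187 ± 70.4 TPM in PBS (SD, n = 4 and 3). The log2 fold change was 0.20 ± 0.43 (SE), with a limma adjusted p of 0.73, and it was -0.037 without PBS 1.

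Neat1 was the only one of the 9 tested genes with a positive log2 fold change on the TPM scale, at the 97.2 percentile of all tested genes. On the size-factor scale it had 194, 327, 135 and 416 in Botox libraries 1 to 4, against 91.2, 137 and 207 in PBS libraries 1 to 3. Botox 2 and Botox 4 were above all PBS libraries there, and Botox 3 lay within the PBS range. That log2 fold change was 0.83 ± 0.45 (SE), with a limma adjusted p of 0.92. An annotated antisense transcript, Frmd8os, overlaps Neat1 by 248 bases and averaged 3.24 ± 1.47 TPM in Botox and 5.06 ± 0.939 TPM in PBS (SD, n = 4 and 3). The strand setting of the counting is not given, so reads in that overlap cannot be assigned.

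**Figure D1:**
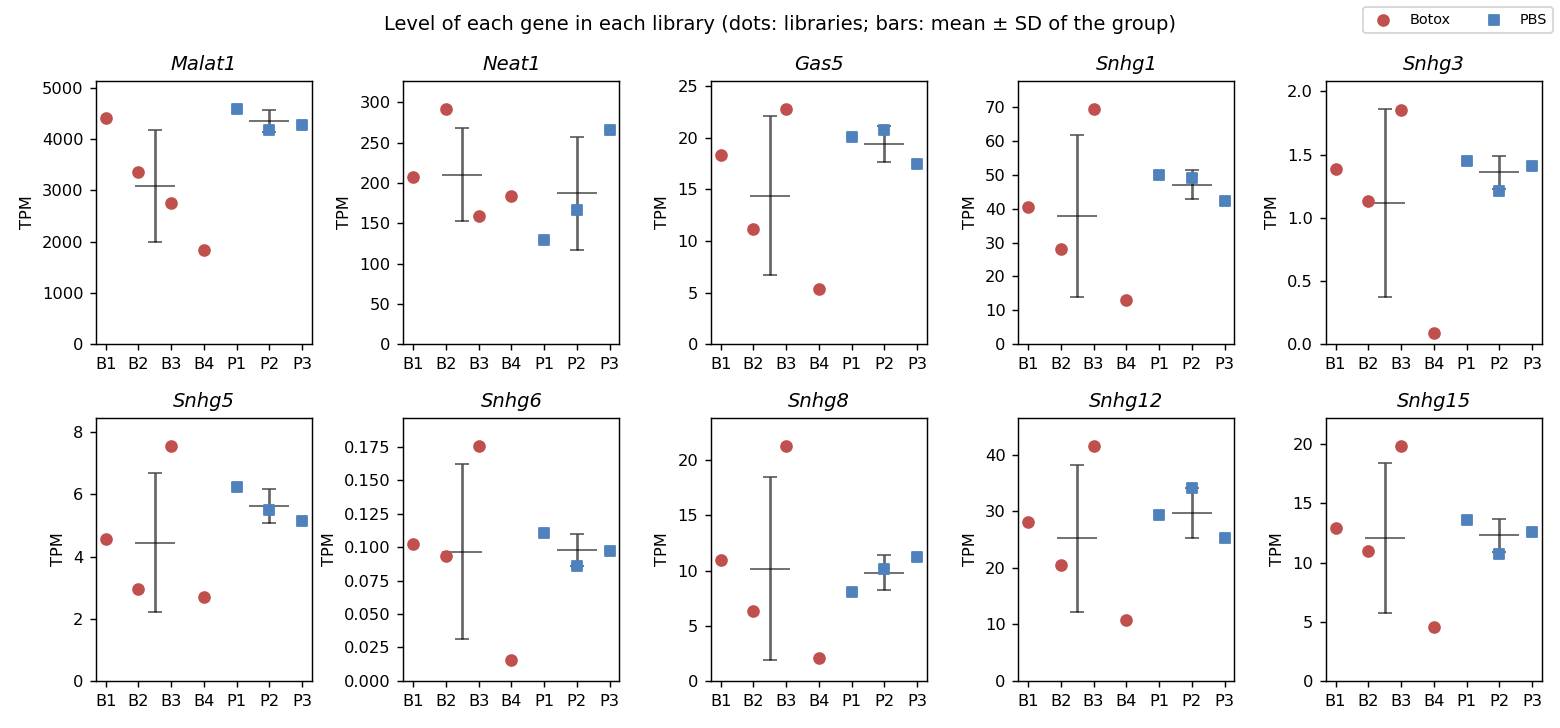
TPM of each of the 10 genes by library, Botox left and PBS right in every panel, with points for libraries and bars for the mean and SD (n = 4 and 3). The Botox points spread further than the PBS points in the 8 host genes and Malat1, as in Malat1, where the SD was 1087 TPM in Botox and 213 TPM in PBS.

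Levels of different genes can be set side by side only per length, and the deposited values were divided by the whole genomic span, introns included. Divided instead by the exonic length of GENCODE vM21, Malat1 averaged 3087 ± 1088 in Botox and 4344 ± 213 in PBS, and Neat1 215 ± 58.6 in Botox and 191 ± 71.7 in PBS. The host genes followed, led by Snhg5 with 72.8 ± 36.5 in Botox and 92.0 ± 9.02 in PBS. Snhg3, with 6.42 ± 4.28 in Botox and 7.82 ± 0.735 in PBS, and Snhg6, with 7.40 ± 5.01 in Botox and 7.48 ± 0.926 in PBS, were the lowest. In Botox, all host genes next to each other in this order differed by less than 1 SD, the larger of the pair's SDs. In PBS, only Snhg12 and Snhg15, and Snhg3 and Snhg6, did so among neighbouring host genes. The files do not say whether intronic reads were counted, which would raise these levels for genes with introns. The exonic lengths are also not alike. For Snhg1, Snhg8 and Snhg12 the GENCODE exons merge into 1 block as long as the gene, so any introns stay in the length. Gas5 keeps 3760 of its 4118 GENCODE bases, in 3 blocks, so little was taken off its length either. Snhg5 and Snhg6 were counted over 28295 and 87590 bases but divided here by 1730 and 1146, so their levels may be too high. The order of the host genes is therefore uncertain.

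Gas5 and Snhg1 are the hosts with the most snoRNAs here. Gas5 (chr1:160861992-160866116, plus strand, mm39), also studied as a growth-arrest transcript, had 18.3, 11.1, 22.8 and 5.35 TPM in Botox libraries 1 to 4, against 20.05, 20.7 and 17.5 TPM in PBS libraries 1 to 3. Snhg1 (chr19:8700801-8703811, plus strand, mm39) had 40.6, 28.1, 69.4 and 12.99 TPM in Botox libraries 1 to 4, against 49.9, 49.1 and 42.1 TPM in PBS libraries 1 to 3. In both genes Botox 3 was the highest library, Botox 4 the lowest, and the PBS libraries lay between them. The log2 fold change was -0.57 ± 0.47 for Gas5 and -0.54 ± 0.53 for Snhg1 (SE), with limma adjusted p of 0.44 and 0.49. On the size-factor scale the log2 fold changes were 0.0096 for Gas5 and 0.073 for Snhg1.

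Snhg12 and Snhg3 lie near each other on chromosome 4, on opposite strands. Snhg12 (chr4:132035932-132038762, plus strand, mm39) had 28.0, 20.5, 41.6 and 10.8 TPM in Botox libraries 1 to 4, against 29.4, 34.2 and 25.3 TPM in PBS libraries 1 to 3. Snhg3 (chr4:132075325-132080997, minus strand, mm39) had 1.39, 1.13, 1.85 and 0.0921 TPM in Botox libraries 1 to 4, against 1.45, 1.21 and 1.41 TPM in PBS libraries 1 to 3. The Snhg3 value of Botox 4 stands for about 5.32 reads, and the other 6 libraries lay much closer together. Log2 fold changes were -0.36 ± 0.47 for Snhg12 and -0.24 ± 0.33 for Snhg3 (SE), with limma adjusted p of 0.58 and 0.60.

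Snhg8 and Snhg15 each hold 1 snoRNA gene. Snhg8 (chr3:123301194-123302053, minus strand, mm39) had 11.0, 6.32, 21.3 and 2.04 TPM in Botox libraries 1 to 4, against 8.05, 10.2 and 11.2 TPM in PBS libraries 1 to 3. Snhg15 (chr11:6475295-6478841, minus strand, mm39), a short-lived stress-responsive transcript, had 12.9, 11.0, 19.8 and 4.53 TPM in Botox libraries 1 to 4, against 13.6, 10.8 and 12.5 TPM in PBS libraries 1 to 3. Both were highest in Botox 3 and lowest in Botox 4. The Snhg8 value of Botox 4 rests on about 18.0 estimated reads. Log2 fold changes were -0.29 ± 0.58 for Snhg8 and -0.17 ± 0.45 for Snhg15 (SE), with limma adjusted p of 0.71 and 0.78.

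Snhg15 was the 1 gene of the 9 tested whose groups did not overlap on the size-factor scale, with Botox higher, where 3.94% of all tested genes were higher and 3.88% lower in that way. It had 12.1, 12.3, 16.8 and 10.3 in Botox libraries 1 to 4, against 9.57, 8.83 and 9.78 in PBS libraries 1 to 3. The log2 fold change was 0.40 ± 0.17 (SE), and limma's adjusted p was 0.92. Without Botox 4, the TPM log2 fold change was 0.20 for Snhg15, 0.22 for Snhg8 and 0.049 for Snhg3, so their sign on that scale rested on this library.

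Snhg5 and Snhg6 have spans in the files far beyond those of GENCODE vM21, at 28295 and 87590 bases in place of 1880 and 2160, which lowers their TPM. Snhg5 (chr9:88377321-88405615, minus strand, mm39) had 4.57, 2.97, 7.56 and 2.70 TPM in Botox libraries 1 to 4, against 6.23, 5.49 and 5.15 TPM in PBS libraries 1 to 3. Its log2 fold change was -0.36 ± 0.36 (SE), with a limma adjusted p of 0.49. Snhg6 (chr1:9926809-10014398, minus strand, mm39) had 0.103, 0.0933, 0.176 and 0.0154 TPM in Botox libraries 1 to 4, against 0.110, 0.0861 and 0.0973 TPM in PBS libraries 1 to 3, and did not reach the minimum for testing. Both were again highest in Botox 3 and lowest in Botox 4. Sgk3 and Mcmdc2, on the other strand, overlap the listed span of Snhg6 and make its reads uncertain. Sgk3 averaged 0.0692 ± 0.0175 TPM in Botox and 0.126 ± 0.0111 TPM in PBS (SD, n = 4 and 3).

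**Figure D2:**
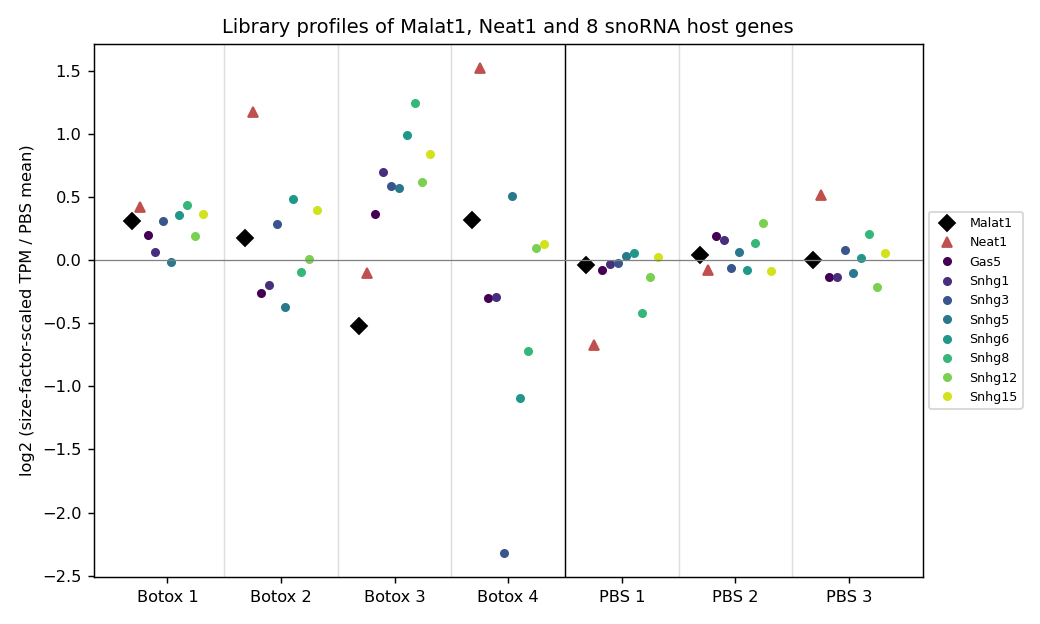
Level of each of the 10 genes in each library on the size-factor scale, as log2 of the ratio to the PBS mean, with Botox libraries left of the vertical line and PBS libraries right of it. All 8 host genes are above 0 in Botox 3, where Malat1 and Neat1 are below 0, and Snhg3 in Botox 4 is the lowest point.

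All 8 host genes were highest in Botox 3, on the TPM scale, where 21.0% of tested genes were, and on the size-factor scale, where 18.8% were. Among the 1340 tested lncRNAs the shares were 31.2% on the TPM scale and 24.0% on the size-factor scale. Of 14 protein-coding snoRNA hosts, 7 were also highest in Botox 3 on the size-factor scale. On the TPM scale all 8 were lowest in Botox 4, as were 75.4% of tested genes, and on the size-factor scale 5 of the 8 were, beside 30.4% of tested genes. Relative to the mean of the other libraries on the size-factor scale, Botox 3 was 1.34-fold for Gas5, 1.70-fold for Snhg1 and 2.42-fold for Snhg8. The same ratio was 0.633 for Malat1 and 0.591 for Neat1, and its median over tested genes was 0.982. Botox 3 is 1 mouse, so this describes a library and not the treatment. Its 4T1 marker sum of 745 TPM was the highest of the Botox libraries and its macrophage marker sum was 637 TPM; the part of either was not tested.

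Malat1 and Neat1 were then set against the 8 host genes within each library, as the mean log2(TPM + 1) of the pair minus that of the hosts. This difference, which does not depend on library scaling beyond the added 1, was 6.69, 7.13, 5.65 and 7.16 in Botox libraries 1 to 4, against 6.30, 6.43 and 6.84 in PBS libraries 1 to 3. Botox 3 was the lowest library, and the other Botox libraries overlapped the PBS range or lay above it. Means were 6.66 ± 0.71 in Botox and 6.52 ± 0.28 in PBS (SD, n = 4 and 3), a difference of 0.13. It was 0.47 without Botox 3, -0.025 without Botox 2, -0.035 without Botox 4 and -0.36 without both Botox 2 and Botox 4, so its sign rested on single libraries.

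Malat1 alone minus the hosts was 8.89, 8.89, 7.69 and 8.82 in Botox libraries 1 to 4, against 8.87, 8.75 and 8.84 in PBS libraries 1 to 3. With the added 1, every library but Botox 3 thus lay within a narrow band. Neat1 minus the hosts was 4.48, 5.37, 3.60 and 5.51 in Botox libraries 1 to 4, against 3.73, 4.11 and 4.84 in PBS libraries 1 to 3, without such a band. The TPM ratio of Malat1 to Neat1 was 21.3, 11.5, 17.2 and 9.96 in Botox libraries 1 to 4, against 35.4, 24.9 and 16.1 in PBS libraries 1 to 3. The groups overlapped through PBS 3. Without the added 1, the TPM ratio of Malat1 to the summed hosts was 37.8, 41.3, 14.9 and 47.4 in Botox libraries 1 to 4. It was 35.5, 31.6 and 37.1 in PBS libraries 1 to 3. Botox 3 was again the lowest library in this ratio, but the others spread more widely, with Botox 4 the highest.

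**Figure D3:**
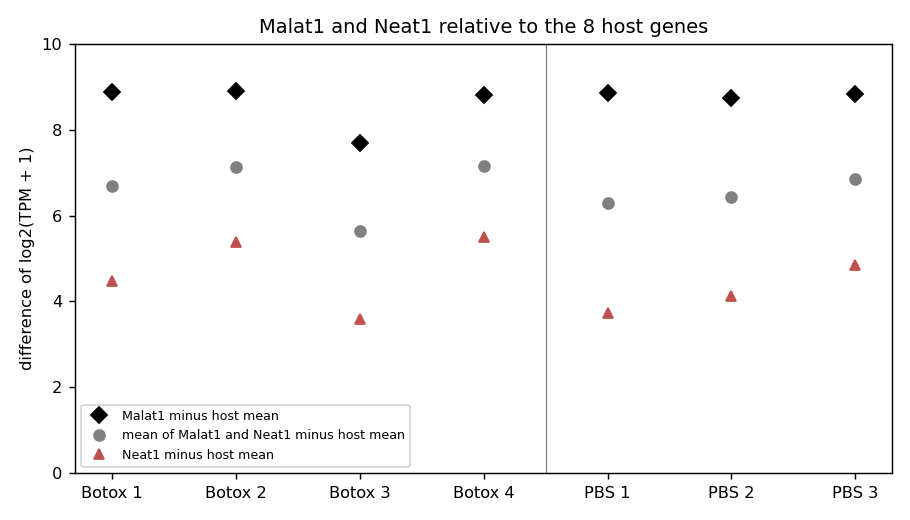
Mean log2(TPM + 1) of Malat1 and Neat1 minus that of the 8 host genes, and each of the pair minus the hosts, by library with Botox left of PBS. In Malat1 minus hosts, Botox 3 sits at 7.69 and the other 6 libraries between 8.75 and 8.89.

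**Figure D4:**
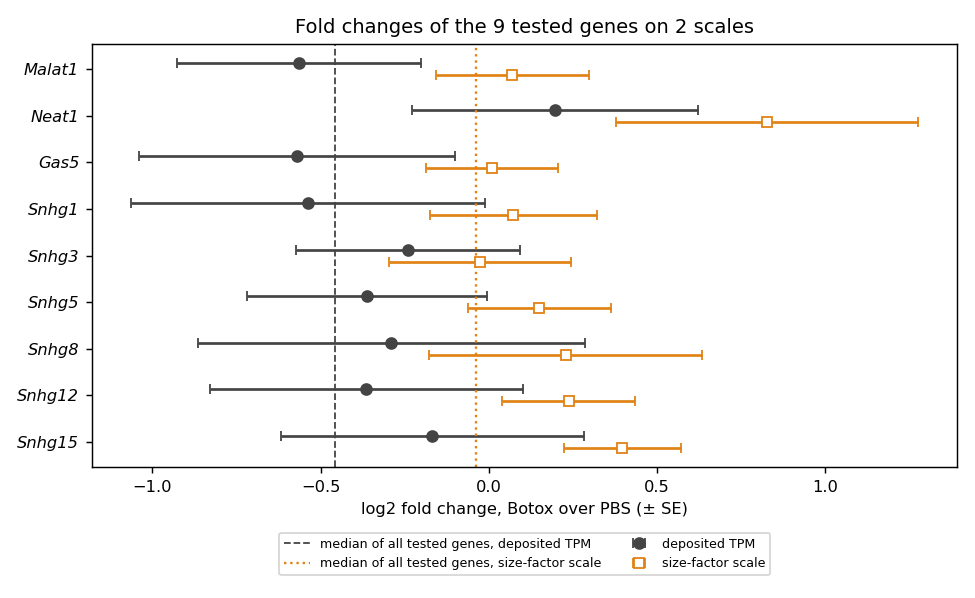
Log2 fold change of Botox over PBS with its SE for the 9 tested genes, on the TPM scale and on the size-factor scale, beside the median of all tested genes. Every interval of 2 SE includes 0 except that of Snhg15 on the size-factor scale, whose limma adjusted p was 0.92.

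The snoRNAs inside the hosts were almost unmeasured. The 8 host spans hold 30 annotated snoRNA genes, and 28 of these, 60 to 137 bases long, were at the floor in all 7 libraries. Across the whole series, 12 of 1453 snoRNA genes under 150 bases and 27 of 54 longer ones were above the floor in any library, so the short ones give no information on snoRNA output. Snord47 in Gas5 and Snord50a in Snhg5 are shown as examples at the floor, with capitals on TGATGA and CTGA, the C and D box letters of this class. The sequences are from GENCODE vM21 transcripts (GRCm38) and the positions are those listed in the files (mm39).
Snord47, chr1:160865652-160865728, plus strand: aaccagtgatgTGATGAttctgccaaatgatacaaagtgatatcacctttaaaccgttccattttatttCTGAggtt
Snord50a, chr9:88403582-88403653, minus strand: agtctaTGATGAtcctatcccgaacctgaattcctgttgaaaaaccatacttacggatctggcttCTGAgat

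The exceptions were Snora73a and Snora73b in Snhg3, which belong to the U17 family needed for ribosomal RNA cleavage. Each is 205 bases long, and the pair is shown because reads must be split between near-identical copies. Capitals mark the 7 positions at which they differ, so 96.6% of positions are identical.
Snora73a, chr4:132080086-132080290, minus strand: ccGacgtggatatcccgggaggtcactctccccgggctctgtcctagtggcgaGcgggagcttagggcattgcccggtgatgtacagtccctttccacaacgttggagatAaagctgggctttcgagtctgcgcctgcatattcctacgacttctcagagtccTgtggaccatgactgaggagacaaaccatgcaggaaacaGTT
Snora73b, chr4:132079633-132079837, minus strand: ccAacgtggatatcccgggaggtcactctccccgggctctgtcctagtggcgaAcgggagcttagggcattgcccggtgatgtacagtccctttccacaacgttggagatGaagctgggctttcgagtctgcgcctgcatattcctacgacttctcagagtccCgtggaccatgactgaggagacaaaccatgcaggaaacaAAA

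Snora73b had 128, 84.6, 162 and 24.9 TPM in Botox libraries 1 to 4, against 154, 167 and 125 TPM in PBS libraries 1 to 3. Snora73a had 36.2, 0.0399, 59.2 and 5.88 TPM in Botox libraries 1 to 4, against 32.5, 36.2 and 33.3 TPM in PBS libraries 1 to 3. Botox 3 was the highest Botox library for both. Snora73a was almost absent from Botox 2 while Snora73b was not, and how reads shared by the copies were assigned is not given. Rcc1, a protein-coding gene for a nucleotide exchange factor of Ran, covers 5592 bases of Snhg3 on the same strand and averaged 2.28 ± 0.939 TPM in Botox and 3.56 ± 0.247 TPM in PBS (SD, n = 4 and 3). The lncRNA Gm17300 lies within Snhg3 on the other strand, so Snhg3 counts are uncertain.

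**Figure D5:**
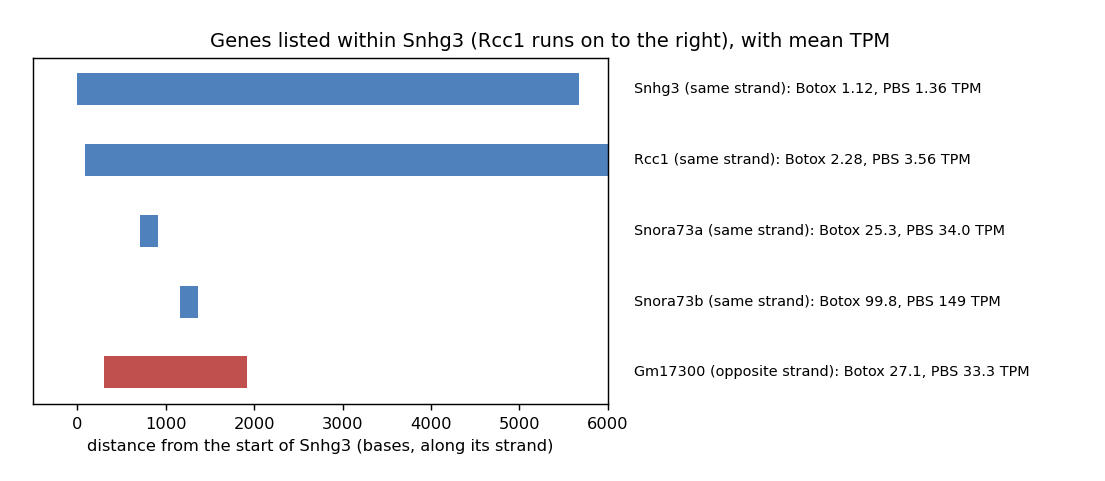
Map of the Snhg3 locus by distance from the Snhg3 start, with the overlapping genes of the deposited table and the mean TPM of each, Botox before PBS. Snora73a and Snora73b lie inside Snhg3, with means of 25.3 TPM in Botox and 34.0 TPM in PBS for Snora73a and 99.8 TPM in Botox and 149 TPM in PBS for Snora73b.

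Other genes of these pathways were described from lists, with 0 genes called in either direction in every list. Of 12 other snoRNA host lncRNAs, 8 were tested, with a median log2 fold change 0.17 above that of all genes on the TPM scale and 0.33 above it on the size-factor scale. On the size-factor scale 4 of the 8 were higher in Botox without overlap, namely Snhg7, Snhg16, Snhg17 and Snhg20. These were chosen for mention after their values were seen. On that scale 3.94% of all tested genes and 4.78% of the tested lncRNAs were higher in that way. On the TPM scale 0 of the 8 were. For Snhg7 the groups were nearly tied on the size-factor scale, with 22.4437 in Botox 2 against 22.4399 in PBS 1. For Snhg20 the gap was also small, with 4.797 in Botox 3 against 4.730 in PBS 2. The gaps were wider for Snhg16 and Snhg17. The 2 named by smallest p were Snhg4, at -0.61 ± 0.49, and Snhg10, at -0.41 ± 0.44 (log2 fold change on the TPM scale, SE), with limma adjusted p of 0.44 and 0.52. Also on the size-factor scale, 4 of the 8 were highest in Botox 3, as were 24.0% of the 1340 tested lncRNAs.

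The 14 protein-coding hosts, among them the ribosomal protein gene Rpl4 (log2 fold change -1.08 ± 0.50 on the TPM scale) and Ncl, which encodes nucleolin (-0.98 ± 0.48), had a median that differed from that of all genes by -0.12 on the TPM scale and -0.070 on the size-factor scale. Of the paraspeckle proteins, 15 were tested, including Ewsr1 (-0.68 ± 0.33) and Hnrnpk (-0.85 ± 0.43), and the median differed from that of all genes by -0.11 on the TPM scale and -0.069 on the size-factor scale. Of the nuclear speckle proteins, 13 were tested, including the splicing factors Sf3b1 (-0.88 ± 0.37) and Srsf1 (-1.02 ± 0.48), with differences of -0.13 on the TPM scale and -0.0012 on the size-factor scale.

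The 9 tested snoRNP core and assembly genes, among them Naf1 (-0.43 ± 0.24) and Nop58 (-0.42 ± 0.27), differed from all genes by 0.041 in the median on the TPM scale. The 10 tested nonsense-mediated decay factors, among them Rbm8a (-0.70 ± 0.35), differed by -0.011 on that scale. The 9 other tested lncRNAs, among them Oip5os1 (-0.82 ± 0.37) and H19 (-0.95 ± 0.52), differed by 0.025. Limma's adjusted p was 0.42 for each gene named from these 6 lists.

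The genes nearest to Malat1 in profile, by the root mean square (RMS) difference of centred log2 values over the 7 libraries on the size-factor scale, were Lsm7, Ugdh and Spred3, at 0.0537 to 0.0834, against a median of 0.346 over 7270 genes. Nearest to Neat1 were Ggn, Ulk3 and Il17c, at 0.170 to 0.254, against a median of 0.741. Nearest to Gas5 were Tpbg, Coa6 and Krt18, at 0.0577 to 0.0681, against a median of 0.299. In the order of likeness to Gas5 over the 7270 genes, Snhg1 was 125, Snhg12 348, Snhg3 2465, Snhg15 2569, Snhg5 3034 and Snhg8 4999. Malat1 was 5990 and Neat1 was 7109. The RMS difference of Snhg8 from Gas5, 0.361, was above the median of 0.299, so the hosts did not all share the Gas5 profile.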

How the data were processed

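The authors deposited TPM for each library, with the genomic span as gene length and a constant of 0.001 added to every value, as the values show. Bowtie2 2.2.5, SAMtools, DESeq2 and the build mm39 are named, per the submitters' processing notes, without a role. How reads were counted, with which strand setting and with what rule for reads of several matches, is not given in the sources used here. Groups and replicate numbers came from the sample titles (4 Botox, 3 PBS).

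The test was limma 3.58.1 (R 4.3.3) on log2(TPM + 1), for genes that reached 1 TPM in 3 or more libraries, with an intensity trend, two-sided, and Benjamini-Hochberg adjustment over all 11260 genes at 0.05. The added 1 makes the fold change of low genes too small. The code of the fit was run on simulated data with the same noise in every gene and library. That setting is unlike these libraries, so it does not give the power of the test here. Python 3.11.15, pandas 2.3.3, numpy 2.4.6, scipy 1.17.1 and matplotlib 3.10.9 gave the other values. Reads were estimated from the step of TPM times span. Of values under 20 reads, 88.5% to 90.0% were whole within a tolerance of 0.1, where chance gives 20%. No count test was run because the deposited values are TPM, which is not a count.

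The members and lists were chosen with earlier results of these data known. Named genes were all members, the 2 genes of smallest p in each list, the 3 nearest profiles of Malat1, Neat1 and Gas5 and the overlapping gene with the highest TPM of each member. One gene that this rule names is not reported here. Predicted genes and unnamed IDs were left out of the profiles, and pseudogenes and genes awaiting experimental support were left out as well, which that rule did not state. Gene ends are the listed stop minus 1. Alternatives covered scaling, pseudocount, filter, test, libraries left out and the replicate block.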

Additional observations from a re-analysis of the deposited data

Results flagged for a closer look

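The difference of Malat1 from the mean of the 8 host genes in log2(TPM + 1) was 7.69 in Botox 3, and this value stood apart from the other Botox libraries. The gap to its nearest neighbour was 0.938 of the range of the 4 Botox libraries. That share was 0.793 for Malat1 alone on the size-factor scale and 0.685 for the pair minus the hosts, and neither was flagged. The flagged difference depends on the added 1. Without it, the TPM ratio of Malat1 to the summed hosts was 37.8, 41.3, 14.9 and 47.4 in Botox libraries 1 to 4, and was not tested in this way. The flagged difference was 1 of 25 values tested in this way, and chance flags about 1 in 20 groups.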

How the results depend on the processing

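Across 23 alternatives, 206 fits of the 9 tested genes gave 0 calls, with a smallest limma adjusted p of 0.27, and the log2 fold change of Botox over PBS changed sign in 63. With size factors, the changed values were Malat1 0.070, Gas5 0.0096, Snhg1 0.073, Snhg5 0.15, Snhg8 0.23, Snhg12 0.24 and Snhg15 0.40. With quantile normalization they were Malat1 0.075, Snhg1 0.044, Snhg3 0.25, Snhg5 0.075, Snhg8 0.14, Snhg12 0.19 and Snhg15 0.30. After rescaling without 7SL RNA they were Snhg8 0.025 and Snhg15 0.17. After rescaling to nuclear protein-coding genes the one changed value was Snhg15 0.095. Without both Botox 2 and Botox 4 they were Gas5 0.074, Snhg1 0.17, Snhg3 0.15, Snhg5 0.062, Snhg8 0.61, Snhg12 0.21 and Snhg15 0.37. Leaving out 1 library at a time gave Gas5 -0.83 to -0.20, Malat1 -0.76 to -0.34, Neat1 -0.037 to 0.48, Snhg1 -0.90 to -0.12, Snhg12 -0.65 to -0.029, Snhg15 -0.44 to 0.20, Snhg3 -0.41 to 0.049, Snhg5 -0.61 to -0.20 and Snhg8 -0.74 to 0.22. The sign changed for Snhg3 0.049, Snhg8 0.22 and Snhg15 0.20 without Botox 4 and for Neat1 -0.037 without PBS 1. Further alternatives were chosen after seeing the data and joined size factors to libraries left out. Without Botox 2 they gave Malat1 0.034, Gas5 0.091, Snhg1 0.16, Snhg5 0.30, Snhg8 0.33, Snhg12 0.31 and Snhg15 0.41. Without Botox 3 they gave Malat1 0.27, Snhg5 0.040, Snhg12 0.11 and Snhg15 0.27. Without Botox 4 they gave Gas5 0.10, Snhg1 0.19, Snhg3 0.22, Snhg5 0.059, Snhg8 0.50, Snhg12 0.28 and Snhg15 0.49. Without both Botox 2 and Botox 4 they gave Gas5 0.27, Snhg1 0.38, Snhg3 0.25, Snhg5 0.23, Snhg8 0.79, Snhg12 0.41 and Snhg15 0.55.

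The replicate block gave Snhg3 0.049, Snhg8 0.22 and Snhg15 0.20, and the replicate block with size factors gave Gas5 0.10, Snhg1 0.19, Snhg3 0.22, Snhg5 0.059, Snhg8 0.50, Snhg12 0.28 and Snhg15 0.49. Correlations of the deviations of same-numbered libraries were 0.096, -0.028 and -0.185, and those of differently numbered libraries ranged over -0.146 to 0.163. So few correlations cannot decide whether the numbers pair the mice. Botox 4 has no partner in the block, so the block gave the same log2 fold changes as leaving out Botox 4, on both scales. These fits are counted separately among the 206 fits and the 63 sign changes. The block moved no call of these genes.

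Over all genes, 0 were called higher and 0 lower on the TPM scale. Size factors, quantile normalization and size factors without Botox 4 each called 1 higher, and 22 were lower with no filter on low values. Leaving out 1 library gave 0 to 3 higher and 0 to 73 lower, the highest of both without Botox 1. The pair minus the hosts, 0.13, moved by less than the spread between libraries in 21 of 21 alternatives, but its sign changed to -0.058 with summed TPM, -0.25 without Neat1, -0.025 without Botox 2, -0.035 without Botox 4 and -0.36 without both. The cause of these changes was not tested. Snhg3 and Snhg8 in Botox 4 rest on few reads, which limits their precision.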
